A study of Drosophila melanogaster with 2 samples.

Results

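Of the 6614 peak summits on chromosome arms in the optimal list of woc binding in whole Drosophila melanogaster larvae, 1487 lay deep inside introns, a share of 22.5% (exact 95% binomial interval 21.5% to 23.5%). A summit was counted as deep intronic when it fell within the body of a protein-coding gene, outside every annotated exon, and more than 2000 bp from the transcription start site (TSS) of any protein-coding transcript, on 2L, 2R, 3L, 3R, 4 or X. Within the optimal list the rule used position alone and no measured signal. The authors had already thresholded that list by irreproducible discovery rate, and its lowest pooled signal was 99.6, against 20.6 in their relaxed pooled list. Signals and ranks given below therefore describe summits that had passed this cut. The flies carried a transgene for woc with GFP fused to its C terminus, all from 1 transgenic line, and male and female larvae, taken whole while wandering before pupariation, were pooled. Sonicated chromatin was recovered with an antibody against GFP in 2 libraries, biological replicates 1 and 3, which formed 1 group with no second genotype, treatment or time. The deposited text names a control alignment as input to the peak calls; no control library was analysed here. With 2 libraries of 1 group the smallest two-sided p that an exact test over samples allows is 0.5, so shares and medians are given as descriptions and their 95% intervals cover counting error over peaks only. Read totals were not used here, and the depth of each library is unknown.

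Introns of protein-coding genes hold many of the enhancers of the fly genome, and first introns are often the longest, so long developmental genes carry much of their regulatory sequence inside their own transcripts. The protein woc (without children) is a zinc finger protein named for mutants that lack ecdysteroid hormone, and it is known to act with the zinc finger protein row and with HP1c, a heterochromatin protein 1 family member found on euchromatic arms. Its binding has mainly been described at active promoters, which makes the sites far from any protein-coding start site a separate class of target. In chromatin from whole larvae, fewer cells with binding and less binding in each cell cannot be told apart.

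Sequences reaching 100 bp to each side of the summits of 7 deep intronic peaks are shown here because they include the strongest sites and carry words that were more frequent at members than in other eligible intron sequence, in counts given further on. They are read from the RefSeq dm6 sequence, plus strand, with the summit at the central base. Capitals mark matches on either strand to the word ACAGTG and to the word ATACCC, so that a match on the minus strand appears as the reverse complement. The windows in gpp, Mi-2 and ex are among the 5 of highest signal, CG9328 carried ACAGTG more than once, CG12535 carried both words of 6 letters, Raf was the densest of the 10 host genes with the most members, and the Eip75B window held neither word.
gpp 3R:6424022-6424222: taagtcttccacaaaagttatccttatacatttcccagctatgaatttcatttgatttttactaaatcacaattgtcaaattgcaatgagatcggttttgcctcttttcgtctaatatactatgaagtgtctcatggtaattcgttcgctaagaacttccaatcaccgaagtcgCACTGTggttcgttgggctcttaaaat
Mi-2 and Su(Tpl) 3L:19903195-19903395: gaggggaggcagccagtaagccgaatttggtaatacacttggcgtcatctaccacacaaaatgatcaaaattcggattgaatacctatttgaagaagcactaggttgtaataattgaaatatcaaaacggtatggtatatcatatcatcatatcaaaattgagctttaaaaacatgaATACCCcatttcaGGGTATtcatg
ex 2L:439432-439632: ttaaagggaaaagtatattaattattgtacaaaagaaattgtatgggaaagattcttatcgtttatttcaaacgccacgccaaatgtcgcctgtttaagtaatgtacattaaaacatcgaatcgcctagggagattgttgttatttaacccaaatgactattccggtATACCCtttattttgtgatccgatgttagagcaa
CG9328 2L:20800030-20800230: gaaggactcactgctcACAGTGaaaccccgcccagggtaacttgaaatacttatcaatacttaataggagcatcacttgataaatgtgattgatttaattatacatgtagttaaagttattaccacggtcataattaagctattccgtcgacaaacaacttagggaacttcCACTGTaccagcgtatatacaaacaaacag
CG12535 X:3433664-3433864: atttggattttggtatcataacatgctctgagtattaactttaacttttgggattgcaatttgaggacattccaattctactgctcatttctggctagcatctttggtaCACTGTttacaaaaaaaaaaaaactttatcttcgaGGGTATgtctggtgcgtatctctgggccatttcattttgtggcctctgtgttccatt
Raf X:2321979-2322179: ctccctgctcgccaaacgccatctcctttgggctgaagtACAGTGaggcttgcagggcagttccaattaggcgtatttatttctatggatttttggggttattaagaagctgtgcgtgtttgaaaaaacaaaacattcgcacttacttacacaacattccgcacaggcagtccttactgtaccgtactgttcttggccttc
Eip75B 3L:18011831-18012031: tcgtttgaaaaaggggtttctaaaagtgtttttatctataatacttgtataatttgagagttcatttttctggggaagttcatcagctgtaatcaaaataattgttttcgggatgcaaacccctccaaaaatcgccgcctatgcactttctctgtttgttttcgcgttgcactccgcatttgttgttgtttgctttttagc

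The strongest deep intronic summit lay at 3R:6424122 in the first intron of gpp, which encodes the Dot1 histone H3 methyltransferase, 17265 bp from the nearest TSS. Signal is the value the authors' peak caller gave each peak. Levels are compared here only within a list, and the 2 libraries only by a ratio set beside that of other summits. The gpp summit had a signal of 413 in replicate 1, rank 27 in that library's own list, 1021 in replicate 3, rank 21, and 1431 in the pooled list, rank 16 among all optimal summits on the arms. It was therefore near the top of both libraries. The next summit, at 3L:19903295, lay in introns of the overlapping genes Mi-2, a nucleosome remodelling ATPase, and Su(Tpl), an elongation factor of the ELL family, and had signals of 317 in replicate 1, 969 in replicate 3 and 1285 pooled. In Tlk, the Tousled-like kinase gene, the summit at X:3742234 had signals of 306 in replicate 1, 855 in replicate 3 and 1144 pooled. The summit in ex, a FERM domain gene upstream of the Hippo kinases, lay at 2L:439532, 8305 bp from a protein-coding TSS. It was 7 bp from an exon edge and 7 bp from the start site of the noncoding gene lncRNA:CR43717. Its signals were 289 in replicate 1, 751 in replicate 3 and 1025 pooled. All of these summits ranked within the first 100 peaks of each library.

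The other summits among the 15 strongest were found in host genes of several kinds. Nuclear receptor genes were present with Eip78C (3L:21253964, signals of 276 in replicate 1, 669 in replicate 3 and 933 pooled) and Eip75B (3L:18011931, signals of 198 in replicate 1, 682 in replicate 3 and 875 pooled). The corepressor genes sbb and Smr had top pooled signals of 970 and 868, and vri, a bZIP repressor of the circadian clock, had 918 at 2L:5293413. The kinase gene FER had a pooled signal of 882, and babos had 1113. The remaining hosts were CG9328 with 999, CG32486 with 908, CG12535 with 907 and CG32264 with 874. Of the 15, 13 lay in a first intron. Across all members pooled signal ran from 99.7 to 1431.

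Deep intronic summits were weaker than the rest of the list. Their median pooled signal was 165 (95% interval 159.9 to 169.5), against 191 for all other optimal summits on the arms. The median was 185 for intronic summits within 2000 bp of a TSS, 164 for intergenic summits beyond 2000 bp and 204 for promoter summits, which lay within 500 bp of a TSS. In replicate 1 the median signal at members was 56.9, against 73.5 at the other summits, and in replicate 3 it was 125 at members against 134 at the others. Both libraries thus placed the members lower, and the gap was wider in replicate 1. The values of members and of the other summits overlapped over most of their range.

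The libraries differed in how they ranked these sites. The 6636 peaks of highest signal in each library, as many as the optimal list holds, are called its top list. Of the members, 951 or 64.0% (61.5% to 66.4%) lay inside a top peak of both libraries, beside 70.9% of all optimal summits on the arms and 77.0% of promoter summits. A further 418 members (28.1%) lay in the top list of replicate 3 alone, against 16.6% of the other summits, and 102 (6.86%) in that of replicate 1 alone, against 9.54%. Distal intergenic summits had values close to those of the members, with 64.9% in both top lists and 28.5% in that of replicate 3 alone. Only 16 members (1.08%) were in neither top list, beside 1.03% of all optimal summits on the arms.

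The ratio of replicate 3 signal to replicate 1 signal had a median of 2.48 (2.43 to 2.56) over the 1416 members present in both libraries' full lists, with quartiles at 1.80 and 3.26. It was 1.95 over the other summits, 1.70 at promoters, 2.43 at intronic summits nearer to a TSS and 2.50 at distal intergenic summits. The deposited lists state no common scale between libraries, so the ratio is read only between classes of summit. With the optimal list cut by pooled signal into 4 equal bins, from the lowest to the highest, the median ratio was 2.34, 2.45, 2.53 and 2.67 at members, against 1.42, 1.54, 1.68 and 1.96 at promoters. The higher ratio of members over promoters was thus present at every level of pooled signal. The ratio was below 1 at 64 members (4.52%), against 9.47% of the other summits. Without a common scale a ratio of 1 does not mark equal binding.

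**Figure D1:**
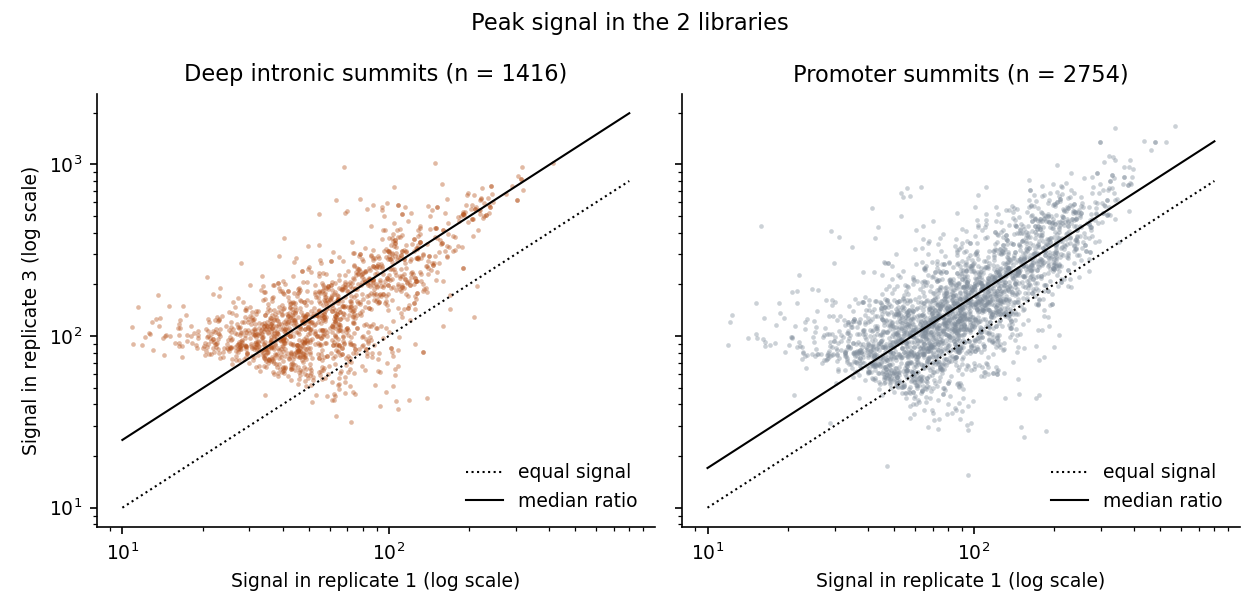
Signal of each summit in replicate 1 (horizontal axis) and replicate 3 (vertical axis), both on log scales and in the caller's units, for 1416 deep intronic summits (left) and 2754 promoter summits (right); 1 point is 1 summit. The dotted line marks equal signal values, for which no common scale between the libraries is stated. The solid line marks the median ratio, which was 2.48 at deep intronic summits and 1.70 at promoter summits.

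Among members with pooled signal at or above the median, those with the most unequal libraries were chosen by this ratio, and their values are given as a description. In tai, which encodes a coactivator of the ecdysone receptor, the summit at 2L:9205282 had signals of 135 in replicate 1 and 80.2 in replicate 3, a ratio of 0.595. Ratios of 0.622 and 0.715 were found in spen, an RNA-binding corepressor gene, and in CHES-1-like, a forkhead gene. At the other end, the summit in Pli, the Pellino gene of Toll signalling, had 13.6 in replicate 1 and 173 in replicate 3, a ratio of 12.7. CG2841 had a ratio of 10.6 and nkd, an antagonist of Wingless signalling, 10.1. The 3 of high ratio ranked between 14258 and 22865 in replicate 1 and within the top list of replicate 3, while the 3 of low ratio were in the top lists of both libraries.

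Sequence that could hold a member, intronic and more than 2000 bp from every protein-coding TSS, amounted to 38.6 Mb or 28.8% of the arms. It held 38.5 members per Mb, against 53.8 optimal summits per Mb in the rest of the arms. Density was 57.8 members per Mb (51.1 to 65.2, exact Poisson interval) at 2000 to 3000 bp from a TSS, 50.4 at 3000 to 5000 bp, 46.1 at 5000 to 10000 bp, 37.3 at 10000 to 20000 bp and 25.7 (21.4 to 30.5) at 20000 to 50000 bp. Density was thus lower in each band farther from the start sites, although the intervals of neighbouring bands overlapped up to 10000 bp. Signal was not: the band medians were 166, 165, 165, 159 and 167 in the same order.

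Beyond 50000 bp there were 5 members in 4.50 Mb, 1.11 per Mb, and all 5 lay in hth, the gene of the homeodomain cofactor Homothorax, between 64005 and 86635 bp from the nearest TSS. The 10 genes with the most eligible sequence of any distance and no member, picked after their values were seen, held 3.70 of these 4.50 Mb. The largest were Myo81F with 1793 kb of eligible sequence, Pzl with 630 kb and lovit with 401 kb. None of these 3 held a deep intronic summit even in the relaxed pooled list of 29999 peaks, in which all 10 genes together held 31. How well reads map there was not tested.

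First introns held 868 members or 58.4% (55.8% to 60.9%), while they made up 37.5% of the eligible sequence. A member was counted in a first intron where at least 1 host transcript had it so. Up to 50000 bp from a TSS, density was 61.3 members per Mb (57.3 to 65.5) in first introns, against 30.8 (28.4 to 33.3) in other introns, and the median pooled signal was 169 in first introns against 159 in the others. The difference in density was present in each band of distance: at 2000 to 3000 bp it was 72.9 members per Mb in first introns against 38.7 in others, at 5000 to 10000 bp 60.3 against 34.9, and at 20000 to 50000 bp 43.2 (31.9 to 57.3) against 20.6 (16.4 to 25.7). Place in a first intron therefore went with density at each distance. From the nearest band to the farthest, density in first introns was 72.9, 67.9, 60.3, 51.4 and 43.2 per Mb. In other introns it was 38.7, 32.5, 34.9, 29.9 and 20.6 per Mb, so it was not lower in each farther band. Intervals of neighbouring bands overlapped in both kinds of intron.

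**Figure D2:**
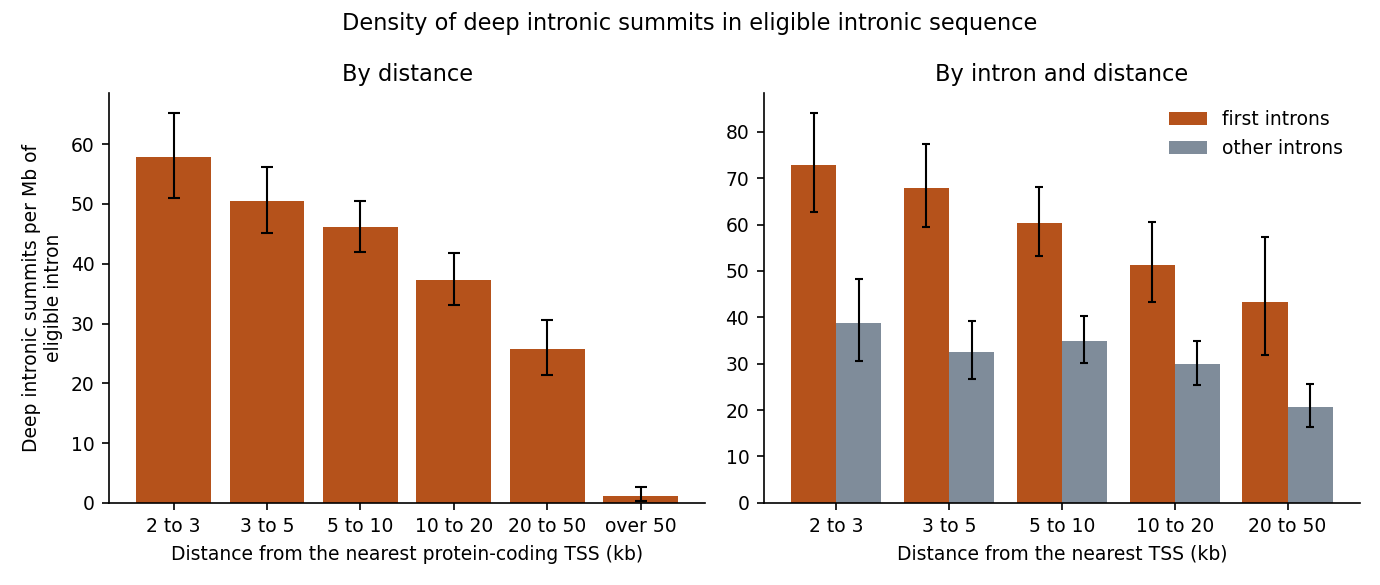
Deep intronic summits per Mb of eligible intronic sequence, by distance from the nearest protein-coding TSS (left) and by distance in first introns and in other introns (right); bars show densities and whiskers exact 95% Poisson intervals over summits. Density was 57.8 per Mb at 2 to 3 kb and 25.7 at 20 to 50 kb, and first introns lay above other introns in every band shown.

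The median member lay 6160 bp from the nearest TSS, with a range of 2003 to 86635 bp, in an intron of 14781 bp. Its median distance to the nearest exon edge was 2388 bp, and 55 members (3.70%) lay within 200 bp of an edge. A noncoding start site lay within 500 bp of 24 members (1.61%), beside 5.13% of all optimal summits on the arms. The nearest protein-coding TSS belonged to a host gene for 1079 members (72.6%) and to another gene for the rest. Just inside the limit were summits in CHES-1-like at 2003 bp, Tet at 2006 bp and Egfr at 2007 bp, with pooled signals of 165, 105 and 339. Just short of it were summits in dlp at 2000 bp, in Irk1 and CG46310 at 1999 bp and in crol at 1997 bp, with pooled signals of 147, 102 and 164. The signals of these few summits overlapped across the limit, and so few cannot compare the 2 sides. As classes, members had a median of 165 (159.9 to 169.5), against 185 (174.7 to 195.8) for intronic summits nearer to a TSS.

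Among the arms, density per Mb of eligible sequence was highest on X, with 49.6 (353 members), followed by 42.9 on 2L (266), 38.4 on 2R (254), 38.0 on 3L (290) and 30.2 on 3R (324). The eligible sequence of 3R includes Myo81F with 1793 kb and Pzl with 630 kb, which held no deep intronic summit even in the relaxed pooled list. The same was true of lovit on 3L (401 kb) and of DIP-lambda (347 kb) and CG17684 (334 kb) on 2R. Such sequence lowers the density of its arm. Members made up 27.7% (25.3% to 30.3%) of the optimal summits on X and between 20.01% and 22.4% of those on the other large arms. The small chromosome 4 had 65 optimal summits and none was a member, which by a limit of 3 counts allows a share of up to 4.62% and a density of up to 9.68 per Mb in its 0.310 Mb of eligible sequence. The relaxed pooled list held 124 deep intronic summits there, all below the optimal threshold. Over all arms, 15.5% of 9565 relaxed deep intronic summits were in the optimal list, against 40.4% of relaxed promoter summits.

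Members were grouped by the genes that held them. Of 4331 eligible genes, those with at least 1 base of eligible sequence, 580 held a member, a share of 13.4% that stands as the background of the gene lists. The share was higher in longer genes: with eligible genes cut into 4 equal groups by their eligible sequence it was 0%, 1.02%, 13.9% and 38.7%, from the shortest to the longest. Lists of long genes are therefore set against a background of shorter ones, and the members per Mb are given beside each share. The value over all eligible genes, 38.5 per Mb, counts the 10 largest genes with no member described above, 4.41 Mb in all, which lower it. A single member was found in 253 hosts, while 16 hosts with at least 10 each held 192 members in all. By the libraries' own top lists the hosts numbered 510 in replicate 1 and 600 in replicate 3, and 448 of the 580 hosts were found in both. Hosts were long genes, with a median of 15448 bp of eligible sequence against 848 bp in eligible genes with no member.

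The most members lay in kirre, which encodes an immunoglobulin adhesion protein of myoblast fusion. It held 19 with pooled signals of 101 to 519, and 11 of them were in both top lists. Tet, a dioxygenase of modified bases, held 16, sbb 15, the tyrosine phosphatase gene Ptp61F 14, and Snoo, a Ski family corepressor of Dpp signalling, 13. These differed widely in density: kirre had 71.2 members per Mb of eligible sequence, Tet 214 and sbb 321. Raf, the kinase that links Ras to the MAP kinase cascade, was the densest of the 10 hosts with the most members, with 12 in 20.1 kb or 596 per Mb. In Raf the pooled signals ran from 108 to 745, with the strongest summit at 26613 bp from the gene's 5′ end, where signal was 195 in replicate 1 and 576 in replicate 3. That summit lay 185 bp from the start site of the noncoding gene lncRNA:CR34052. The cofactor gene tara and the cell cycle factor gene E2f1 held 11 each in about 25.1 kb, or 438 per Mb, and the zinc finger gene jing also held 11. Eip75B held 10, with pooled signals of 115 to 875 and a median of 250.

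The spacing of members within a host is given as a description, and no expected spacing was computed. The 952 gaps between neighbouring members of the same host had a median of 2254 bp, and 321 (33.7%) were within 1000 bp. The 1487 members fell in 1279 merged regions of overlapping peaks, so some gaps lie within 1 region. The shortest gap was 199 bp, and summits that close can fall inside the same peak of a library's list and then share its signal there. Overlapping peaks joined 28.9% of members to another summit, beside 30.1% of all optimal summits on the arms.

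**Figure D3:**
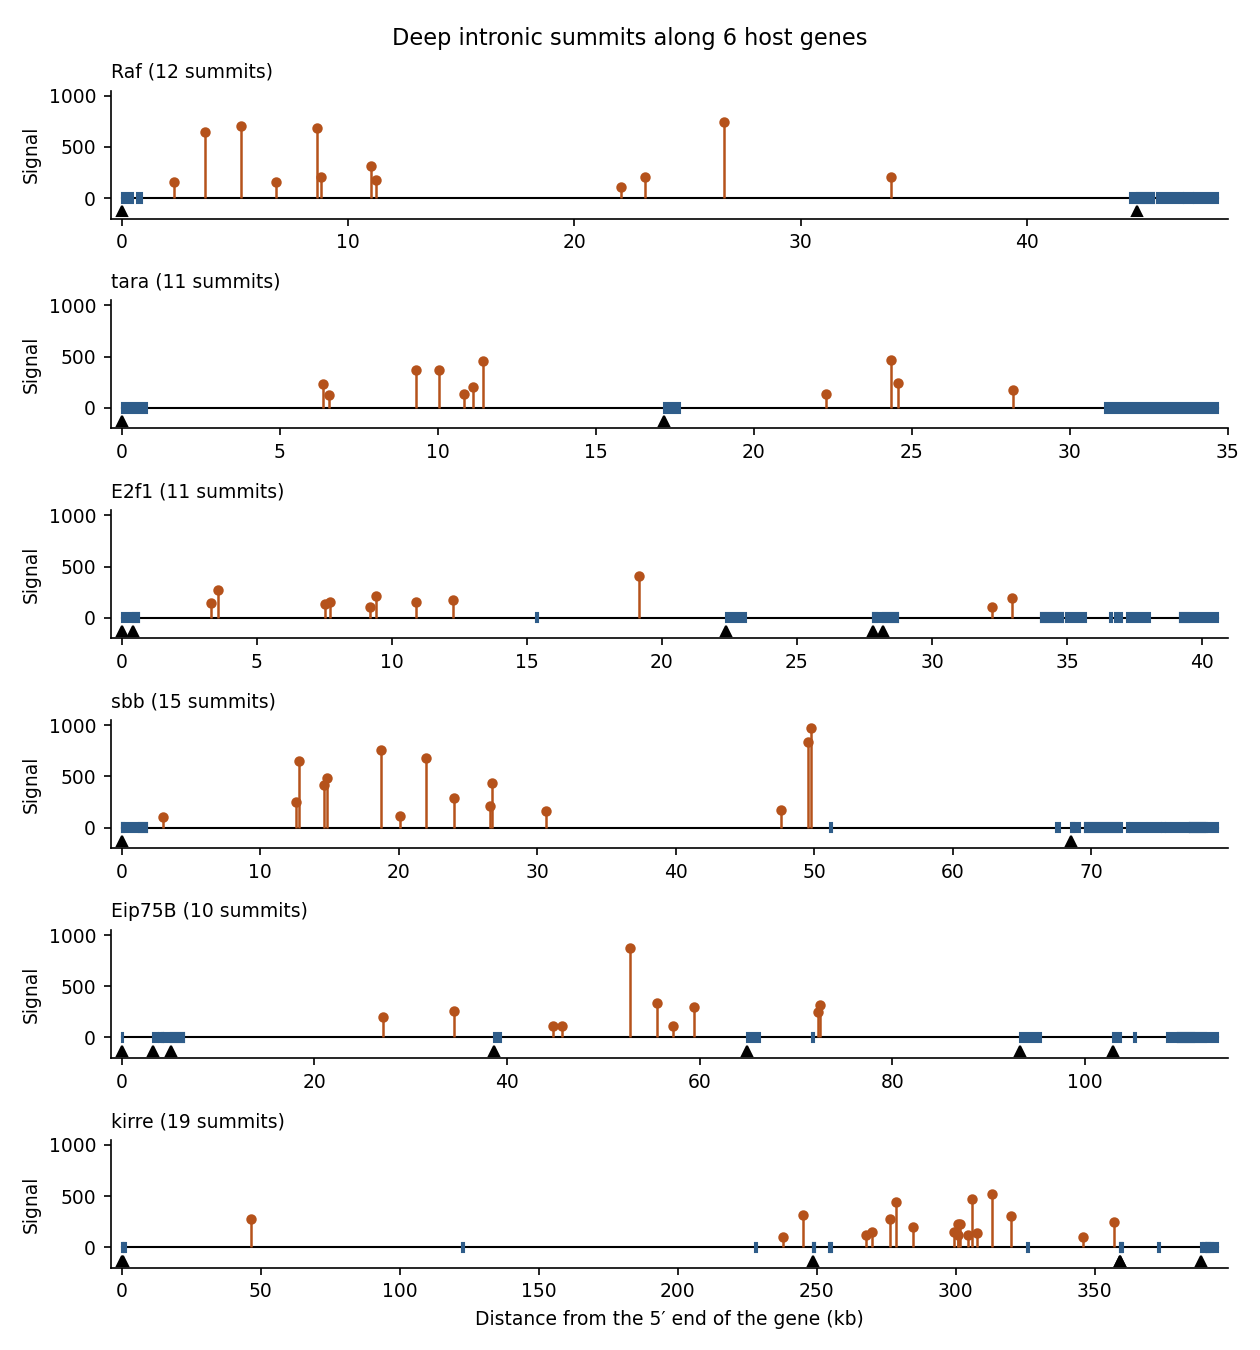
Deep intronic summits along 6 of the 10 host genes with the most members, by distance from the gene's 5′ end in kb (horizontal axis) and pooled signal (vertical axis, caller's units). Blue boxes are exons, triangles are start sites, and each stem is 1 summit; Raf held 12 and kirre 19, with 1 of those in kirre at 46354 bp from its 5′ end and the other 18 at 237766 bp or farther.

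A promoter of the host was also bound at 264 of the 580 host genes, or 45.5% (41.4% to 49.7%), where bound means an optimal summit within 500 bp of any of its protein-coding start sites. The share was 28.2% of eligible genes with no member and 21.9% of all 13945 protein-coding genes. With eligible genes cut into 4 equal groups by the length of their eligible sequence, it was 43.4% of 419 hosts in the longest group, against 19.6% of 663 genes with no member, and 75 of 150 hosts in the next, against 284 of 932. Members were split nearly evenly between hosts with a bound promoter (741) and hosts without one (746), with median pooled signals of 171 and 158. A deep intronic site was therefore often present where the host's own promoter had no optimal summit.

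Genes of the ecdysone response had the highest share of hosts among the 21 lists counted. Of 21 eligible genes, 15 were hosts (71.4%, 47.8% to 88.7%), with a median of 18091 bp of eligible sequence and 67 members or 114 per Mb against 38.5 per Mb over all eligible genes. By the top lists alone 16 were hosts in replicate 1 and 14 in replicate 3. Ecdysone is the steroid hormone whose pulses drive moulting and metamorphosis, and its receptor, EcR, held 10 members with pooled signals of 104 to 297. Eip74EF, an early ETS factor gene, held 9 with signals up to 255. In Eip78C the 4 members reached 933, and Hr4, another nuclear receptor gene, held 5 that reached 779 at X:1947748, with 165 in replicate 1 and 624 in replicate 3. The transporter gene E23 held 4 with signals up to 694, the kinase gene Eip63E 6 with signals up to 621, and the coactivator gene tai 7 with signals up to 396. Eip93F, the E93 factor gene of adult fate, held none in 47.3 kb of eligible sequence. The list of nuclear receptors, which shares 10 genes with the ecdysone list, had 9 hosts of 15 eligible genes and 125 members per Mb.

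Components of signalling pathways were hosts in part, and each pathway list also held eligible genes with no member. In the Dpp and activin pathway 7 of 15 eligible genes were hosts, with 156 members per Mb. They were the ligand gene dpp with 1 member (292), the antagonist sog with 4 (up to 489), the type I receptor gene tkv with 9 (129 to 665), the glypicans dally with 4 (up to 453) and dlp with 7 (up to 364), the transcription factor gene shn with 5 (up to 800) and Dad, the inhibitory Smad gene, with 2 (up to 759). The receptor genes babo and put and the Smad gene Mad were eligible and held none. In the EGF receptor and Ras pathway 10 of 19 were hosts, with 120 members per Mb. Besides Raf these included the receptor gene Egfr with 4 (up to 394), S, the Star gene of ligand processing, with 5 (up to 523), and the ETS factor genes pnt with 6 (up to 460) and aop with 4 (up to 750). The MAP kinase gene rl held none in 38.0 kb of eligible sequence.

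The Notch pathway had 6 hosts of 12 eligible genes. They were the receptor gene N with 3 members (up to 709 at X:3162562, with 190 in replicate 1 and 527 in replicate 3), the ligand genes Delta with 2 (up to 342) and Ser with 2 (up to 441), the glycosyltransferase gene fng with 2, the protease gene kuz with 3 and the coactivator gene mam with 6 (up to 620). The Wingless pathway had 7 of 19, led by the receptor genes fz with 8 (up to 850) and fz2 with 10 (up to 461) and the coreceptor gene arr with 4 (up to 492). The Hippo pathway had 6 of 13, which were ex with 4 (up to 1025), the kinase gene wts with 2 (up to 430), kibra with 2, the atypical cadherin genes ft with 1 and ds with 6 (up to 393), and dachs with 3. Of insulin and growth genes 5 of 17 were hosts, among them the receptor gene InR with 5 (up to 483) and Myc with 2 (up to 529). Each of these 4 lists had between 83.0 and 113 members per Mb, above the 38.5 of all eligible genes. In each of them other eligible genes held none. Among these were numb with 13.6 kb of eligible sequence, pan with 19.6 kb, app with 42.0 kb and sNPF with 24.1 kb.

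Polycomb and trithorax genes had 8 hosts of 25 eligible and 189 members per Mb in 159 kb, of which jing alone made up 93.0 kb and 11 of the 30 members. The other hosts were the Brahma complex gene osa with 8 (up to 361), trx with 3 (up to 406), the Mediator gene skd with 3, Psc with 2 (up to 566), kis, a chromodomain remodeller gene, with 1 (720), ph-p with 1 (384) and Su(z)2 with 1. The genes of the HP1c, woc and row complex had 0 hosts of 5 eligible in 0.913 kb, and insulator protein genes had 0 of 7 in 4.24 kb, although 1 insulator gene was a host by the top list of replicate 1. Both lists hold little sequence in which a member could be found. Stress response genes had 5 hosts of 10, with 188 members per Mb: the Fos gene kay with 2 (up to 416), the JNK phosphatase gene puc with 6 (up to 409), Atf3 with 4, msn with 3 and cnc with 1. The heat shock genes Hsp26, Hsp27 and Hsp83 have no eligible intron.

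Long genes of the nervous system went the other way. Ion channel and synapse genes had 4 hosts of 31 eligible, a share of 12.9% (3.63% to 29.8%), and 8 members in 949 kb, or 8.43 per Mb. Of these 8 members 5 lay in Ca-beta, a calcium channel subunit gene (up to 318), and rut, dnc and nAChRalpha6 held 1 each. The potassium channel gene Sh held none in 82.4 kb, the sodium channel gene para none in 48.2 kb and rg none in 128 kb. Neuron adhesion and wiring genes had 14 hosts of 37, but with 1939 kb of eligible sequence their density was 25.3 per Mb, and 19 of their 49 members were those of kirre. Ten-a, a teneurin gene, held 5 (up to 619), Sema1a 4 and robo2 5 (up to 256). The share of hosts in this list, 37.8% (22.5% to 55.2%) at a median of 35279 bp, was above that of all eligible genes and near the 38.7% of the longest group, and its density was below that of all eligible genes.

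Homeobox patterning genes had 13 hosts of 32 eligible and 59.4 members per Mb. Of the Hox genes, Antp held 10 members (111 to 390), Ubx 2 and Scr 1. Eligible Hox genes with none included abd-A with 15.7 kb of eligible sequence, Abd-B with 18.6 kb and pb with 27.8 kb. The cofactor gene hth held 10 members (99.8 to 379). Fewer genes of the homeobox list were hosts by replicate 1 alone, with 7 against 14 by replicate 3. Of the GATA factors and their cofactor ush, ush held 10 (99.9 to 528) and grn 2, while the other 4 eligible genes held none. Among circadian clock genes vri held 5 in 8.65 kb and Pdp1, a bZIP activator gene of the clock, 3, out of 10 eligible genes.

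**Figure D4:**
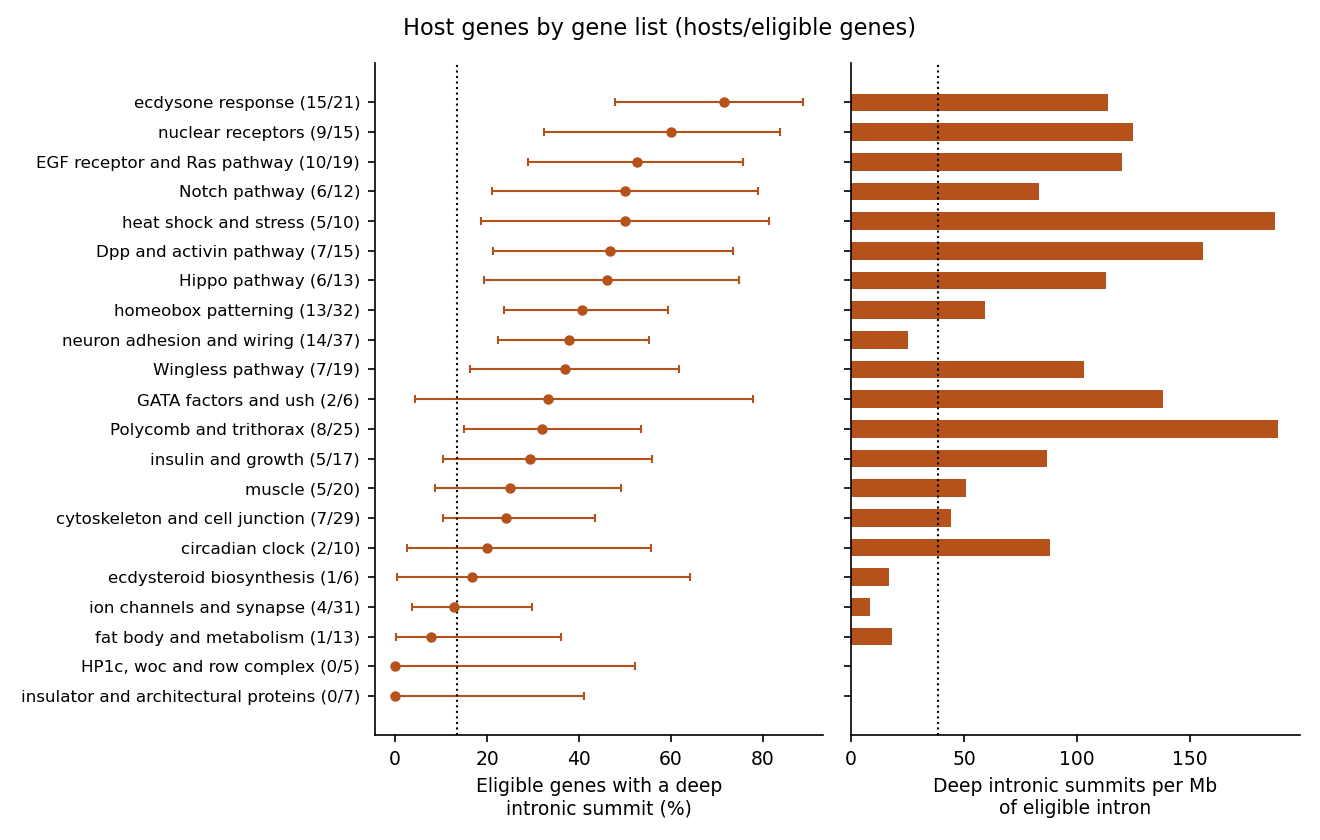
Share of eligible genes that held a deep intronic summit, with exact 95% binomial intervals over genes (left), and deep intronic summits per Mb of eligible intron (right), for 21 gene lists; dotted lines mark 13.4% and 38.5 per Mb, the values over all eligible genes. The ecdysone response list had the highest share at 71.4%, and the HP1c and insulator lists had none.

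Words known from other binding sites were counted within 100 bp of each summit, on both strands. The promoter words were less frequent at members than at the other optimal summits. TATCGATA, the DREF element, was found at 4 members or 0.269% (0.0733% to 0.687%), against 4.49% of the other optimal summits. It was at 7.84% of the windows at the 5′-most start site of 13945 genes and 0.378% of 181667 tiles of the eligible sequence. By class it was at 7.36% of promoter summits, 0.354% of distal intergenic summits and 0.595% of intronic summits nearer to a TSS. CGATA, the BEAF-32 word, which lies inside TATCGATA, was at 20.1% of members, against 31.7% of the other summits, 39.4% of all promoters and 19.4% of tiles. Its share was 39.9% at promoter summits, 17.8% at distal intergenic summits and 22.4% at intronic summits nearer to a TSS. GGTCACAC, bound by M1BP, was at 0.807% of members (0.418% to 1.41%), against 2.87% of the other summits, 6.76% of all promoters and 0.308% of tiles. It was at 4.65% of promoter summits, 0.590% of distal intergenic summits and 0.595% of intronic summits nearer to a TSS. TATCGATA and CGATA were thus about as frequent at members as anywhere in such introns, while the interval for GGTCACAC lay above the tiles. Low shares of TATCGATA and GGTCACAC were shared by these other classes away from promoters. GAGAGAG, bound by the GAGA factor, was at 3.03% of members, against 5.48% of the other summits, 3.69% of all promoters and 2.64% of tiles. By class it was at 6.29% of promoter summits, 2.01% of distal intergenic summits and 6.78% of intronic summits nearer to a TSS.

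Words of other factors differed in how they compared with the tiles. AGGTCA, bound by nuclear receptors, was at 4.03% of members (3.09% to 5.16%), against 3.29% of all promoters and 4.87% of tiles, and the longer TCAAGGTCA, which contains it, was at 0 of 1487 members, which by the same limit of 3 counts allows a share of up to 0.202%. AGATAAG, bound by GATA factors, was at 2.89% of members, against 2.77% of all promoters and 2.37% of tiles, and TGANTCA, bound by AP-1, at 4.64%, against 3.79% of all promoters and 4.15% of tiles. CACACACA, a CA repeat, was at 4.24% of members (3.27% to 5.39%), against 2.85% of all promoters and 5.62% of tiles. AACCGGTT, bound by Grainyhead, was at 0.740% (0.370% to 1.32%), against 0.488% of all promoters and 0.206% of tiles, which rests on 11 members. ATGCAAAT, bound by POU factors, was at 2.89% of members (2.10% to 3.88%), against 1.63% of all promoters and 4.34% of tiles, and CAGGTAG, bound by Zelda, at 1.34% (0.823% to 2.07%), against 1.03% of all promoters and 0.869% of tiles. CACGTG, a palindromic E-box, was at 1.14% of members (0.667% to 1.82%), against 2.88% of all promoters and 2.30% of tiles. The interval at members lay below the tiles for the POU word, the CA repeat and the E-box, and above them for the Grainyhead word. It lay around them for the 6-letter nuclear receptor, GATA, AP-1 and Zelda words. Of the 23 words counted, those not named here also had intervals around the tiles. A run of 8 A was at 17.9% of members, 9.97% of all promoters and 14.0% of tiles.

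To find words that did stand out, all 2080 words of 6 letters were ranked by their share at the 810 members on 2L, 2R and 3L over their share in the tiles there, and read at the 677 members on 3R and X. This search was added after the data were seen. ACAGTG led the ranking, at 20.6% of members on the arms used for ranking against 7.17% of tiles, and it was at 19.6% of members on 3R and X against 7.21% of tiles there. ATACCC was next, with 15.4% against 6.32% on the ranking arms and 15.8% against 6.35% on 3R and X. The following words overlapped ACAGTG or resembled it: ACACTG had 16.5% of members against 7.33% of tiles on 3R and X, CAGTGC 16.8% against 8.51%, AGTGTA 19.4% against 7.81% and ACTGTA 15.2% against 6.53%. All of the first 10 words had a higher share at members than in tiles on 3R and X, with ratios from 1.37 to 2.72. Members were richer in A and T than the tiles, with a median G and C content of 36.3% against 40.8%, while both leading words have equal numbers of strong and weak bases. The other optimal summits had the same median as the members, 36.3%.

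Shares of these words over all arms include the members used for the ranking, so only the values on 3R and X are apart from it. Over all arms ACAGTG was at 300 members or 20.2% (18.2% to 22.3%), from 213 host genes, against 19.0% of the other optimal summits, 9.79% of all promoters and 7.18% of tiles. It was thus not confined to introns but common to the optimal list, at 17.7% of promoter summits and 24.3% of intronic summits nearer to a TSS. Matches were denser at the summits, with 1.18 per kb within 100 bp of members' summits and 0.434 per kb at 301 to 500 bp. Members with and without the word had median pooled signals of 165 and 164. ATACCC was at 232 members or 15.6% (13.8% to 17.5%), against 11.2% of the other summits, 5.56% of all promoters and 6.36% of tiles. By class it was at 15.5% of distal intergenic summits, close to the members, 11.8% of intronic summits nearer to a TSS and 9.31% of promoter summits. ATACCC was at 4.90% of the 102 members in the top list of replicate 1 alone, against 19.1% of the 418 in that of replicate 3 alone. Its share thus went with the library, whereas ACAGTG was at 14.7% and 20.6% of them.

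Among words of 9 letters the same ranking put CTCTCAGTG first. It was at 2.96% of members on the ranking arms, against 0.238% of tiles, and at 3.10% of members on 3R and X, against 0.257% of tiles. Over all arms it was at 45 members or 3.03% (2.22% to 4.03%) from 43 host genes, against 1.19% of the other optimal summits, 0.547% of promoter summits, 0.179% of all promoters and 0.245% of tiles, and at 3.31% of distal intergenic summits. It had 47 matches within 100 bp of members' summits and 4 at 301 to 500 bp. Over all arms, those used for the ranking included, 543 members or 36.5% (34.1% to 39.0%) held at least 1 of these 3 words. The share was 29.9% of the other summits, 14.97% of all promoters and 13.4% of tiles. A match is a description of the sequence and not of a bound factor.

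**Figure D5:**
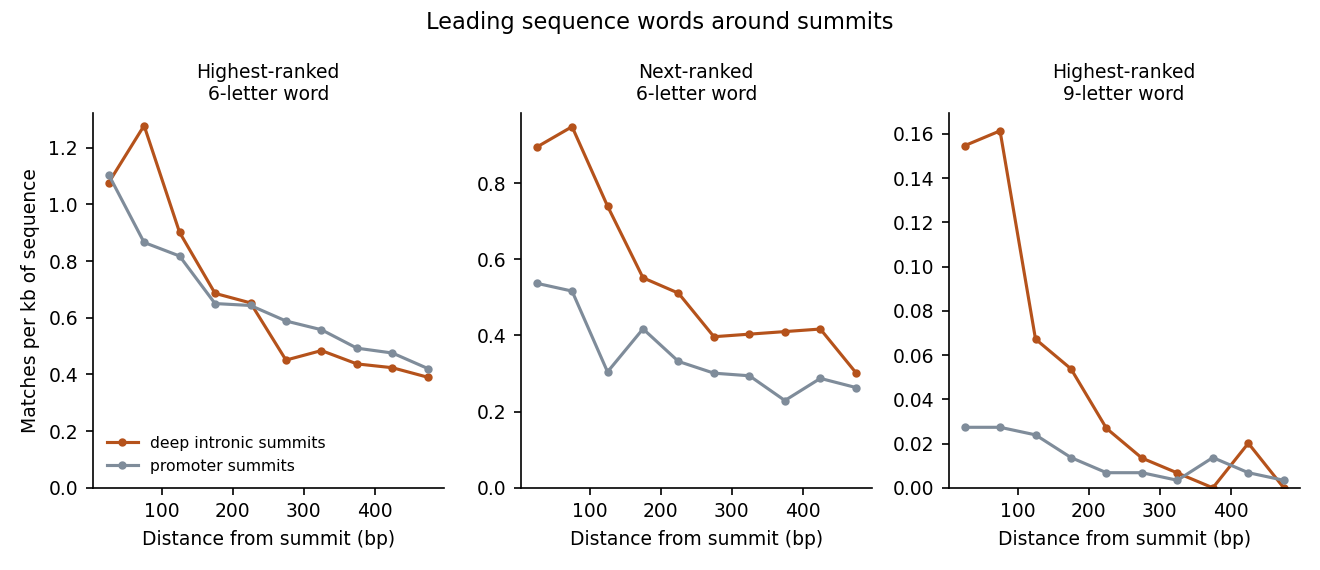
Matches per kb of sequence on either strand, by distance from the summit in bp (bins of 50 bp), for the words ACAGTG (left), ATACCC (centre) and CTCTCAGTG (right), around deep intronic summits and promoter summits. For ACAGTG at deep intronic summits the density was 1.08 per kb in the central bin and 0.390 in the outermost, and CTCTCAGTG stood higher at deep intronic summits than at promoter summits in the bins up to 300 bp.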

How the data were processed

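Peak lists of anti-GFP ChIP-seq from 2 libraries (biological replicates 1 and 3, 1 group) were used on the build dm6. Per the labels and the deposited text, the authors called peaks in each library against a control alignment and on the pooled alignments, as relaxed lists of 29999 peaks, and kept an optimal list of 6636 by irreproducible discovery rate (IDR). Signal values are the authors' own, from their caller, with no scale between lists stated. The −log10 q of a peak is also the authors' deposited value, and 59.8% of members stood at its ceiling of 3.94. The aligner, the caller and the threshold are not given in the sources here. Deposited dm3 lists were not used. Read depth is unknown.

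Summits (start plus offset) were placed on the Ensembl release 115 annotation (BDGP 6.54), with sequence from the RefSeq dm6 genome, within whose arms every peak end lay. All optimal peaks were in the pooled list, and a library's value at a summit is that of its strongest peak covering the summit. Of the optimal summits, 22 on other sequences were left out. Another 2 stayed among the summits on the arms but were not counted as deep intronic, because the only exon over them was that of a transposable element. Members of more than 1 host (43) were counted for each. Eligible sequence was cut into tiles of the same width as the summit windows, and words were counted once a window; ranked words needed a share of at least 5% of tiles (6 letters) or 0.15% (9 letters). The 486 gene names of 21 lists were matched to the annotation, 22 through other symbols.

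No test was run: 1 group of 2 libraries allows none, and peaks are not replicates. Intervals are exact binomial, Poisson or order-statistic intervals at the 95% level, while the limit for a count of 0 is 3 counts over the total and is not an exact interval. The members, gene lists and words were chosen with earlier results of these data known, and the ranked words and the densities by distance and intron were added after seeing the data. Genes were named by rule for the 15 strongest members, the 10 hosts with the most members and the top member of each arm. The same holds for members nearest the limit, farthest from a TSS or with extreme library ratios. From each list the rule also picked the 3 hosts of highest signal and the first non-host. Most of these non-hosts and some of these hosts are not named above. Other hosts of a list are named to complete its count, and other genes after their values were seen. Alternatives changed the distance limit, the start sites used, the signal cut, merging of regions, the library used, the overlap and promoter rules and the word window. Placing and word counting were tested on simulated data. Python 3.11.15, pandas 2.3.3, numpy 2.4.6, scipy 1.17.1 and matplotlib 3.10.9 were used.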

Additional observations from a re-analysis of the deposited data

How the results depend on the processing

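With a limit of 1000 bp in place of 2000 bp the members made up 29.3% of optimal summits and 64.0% lay in a first intron, and with 5000 bp the values were 13.4% and 51.0%, with 343 hosts of which 40.8% had a bound promoter. Counting start sites of every biotype left a share of 21.3%. The 3318 optimal peaks of highest signal gave a share of 18.9%, a median signal of 291, a library ratio of 2.61, 94.1% in both top lists, 352 hosts, 61.5% in first introns and 31.3% of hosts with a bound promoter. Requiring a top-list summit within 100 bp left 53.0% in both top lists, and promoters of 1000 bp gave 54.1% of hosts bound. Leaving out 1 library and taking the same number of peaks from the other gave shares of 19.6% to 23.4%, median signals of 60.4 to 117 on the libraries' own scales, 510 to 600 hosts, 59.0% to 59.2% in first introns and 42.2% to 57.3% of hosts with a bound promoter; the cause was not tested. Of 47 such values, 27 stayed within the interval of the reported value, or within 1.5 times for host counts, and 1 summit for each merged region changed none beyond it. Of 46 word shares under a window of 50 bp on each side or 1 summit for each merged region, 27 stayed within the interval. No paired analysis was possible because there is 1 group.

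The densities rest on annotated exons and start sites, and sequence that reads cannot map to counts as eligible. Host genes sharing sequence cannot be told apart. Peaks of 1 pooled list are not independent, and with 1 fly line, whole larvae and no control library here, neither cell types nor tagging effects can be separated.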

Other observations

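Lists of tissue genes differed in their members. Of 20 eligible muscle genes 5 were hosts, with 50.8 members per Mb against 38.5 over all eligible genes: mew and if, which encode integrin alpha subunits, held 8 (up to 681) and 4 (up to 488), and Tm1, Mef2 and Zasp52 held 2 each. bru1, a splicing regulator gene of flight muscle, held none in 106 kb of eligible sequence. Of 13 eligible fat body and metabolism genes only bmm, a triglyceride lipase gene, was a host, with 1 member of signal 199 at 3L:14781476 that had 110 in replicate 1 and 98.2 in replicate 3. Of 6 eligible ecdysteroid biosynthesis genes only mld, a zinc finger gene needed for ecdysteroid production, was a host, with 2 members (up to 185), while nvd and spok held none in 61.2 kb and 28.3 kb. Cytoskeleton and cell junction genes had 7 hosts of 29 and 44.1 members per Mb, led by the myosin VI gene jar with 1 member (345), the fascin gene sn with 3 (up to 291) and sdt with 3 (up to 228).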
